A study of Mus musculus with 5 samples.

Results

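Mitochondrially encoded transcripts were examined in RNA from primary mouse astrocyte cultures. They were taken as every gene of the authors' deposited table whose symbol begins with mt-, which gave 15 of 18783 genes. By RNA class they were 2 ribosomal RNAs (mt-Rnr1 and mt-Rnr2), 13 mRNAs and 0 transfer RNAs. GENCODE annotates 37 mitochondrial genes in mouse, and its 22 transfer RNAs are not among the genes of the table, so no value is given for them.

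The cultures came from C57BL/6 pups aged P0-P1 and were harvested on day 12 in vitro. Control cultures (2 libraries) were untreated. Aβ cultures (2 libraries) received amyloid-β peptide at 1 µM, and Aβ+DFMO cultures (1 library) received 1 µM Aβ with 50 µM DFMO (difluoromethylornithine), an inhibitor of ornithine decarboxylase; both treatments began on day 7 and lasted 5 days. All groups shared the medium with horse and fetal bovine serum, and RNA was enriched for polyadenylated molecules on beads before a library kit that does not mark strand (NEBNext Ultra RNA). Nothing in the labels tells whether 2 libraries of one group had separate cultures as their source, so p-values may reflect technical spread alone.

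The mitochondrial genome is a small circle that is transcribed from both strands into long precursors, which are cut apart largely at the transfer RNAs between the genes. Its mRNAs encode core subunits of respiratory complexes I, III, IV and V, and its 2 ribosomal RNAs form the core of the mitochondrial ribosome that translates them. Mitochondrial mRNAs other than mt-Nd6 generally carry short poly(A) tails, whereas the mitochondrial ribosomal RNAs end in only a few added adenosines. A method that selects poly(A) therefore does not sample both classes alike. Astrocytes use both glycolysis and mitochondrial respiration.

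The ends of 7 of the annotated genes show how the classes differ there. The last 30 bases of each gene as annotated, which for mt-Co1 and mt-Nd6 is not the end of the RNA, are given 5′ to 3′ as DNA letters, from GENCODE M21 on GRCm38, with the part of the stop codon that the genome encodes in capitals.
mt-Rnr1: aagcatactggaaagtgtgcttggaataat
mt-Rnr2: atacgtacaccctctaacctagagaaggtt
mt-Co1: gaggaaccaacctatgtaaaagtaaaaTAA
mt-Co3: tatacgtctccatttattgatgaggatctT
mt-Nd4: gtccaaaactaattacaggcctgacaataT
mt-Cytb: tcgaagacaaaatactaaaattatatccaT
mt-Nd6: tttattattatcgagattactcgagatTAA
The ribosomal RNAs have no stop codon. Of the 13 mRNAs as annotated, mt-Co3, mt-Nd4 and mt-Cytb end in a single T, and the added tail completes their stop codon. The annotated ends of mt-Nd1 (3707) and mt-Nd2 (4951) overlap the transfer RNA genes mt-Ti (from 3706) and mt-Tw (from 4950) on the same strand. Where the RNAs of mt-Nd1 and mt-Nd2 end was not examined. The longest run of A inside a transcript was 7 bases in mt-Rnr2 and 5 in mt-Rnr1.

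Values are the authors' normalized group means, which carry no error of their own, and no value per library was used for a single gene. Sequencing gave 49676004 and 49020833 reads for Control but 4825677 for Aβ+DFMO, a 10.2-fold to 10.3-fold shortfall; depth of the Aβ libraries was not analysed here. One read in that library was worth an estimated 7.45 signal units, so its mitochondrial mRNA values rest on an estimated 579 (mt-Nd3) to 35959 (mt-Co1) reads each. All 10 astrocyte markers checked, among them Gfap, Slc1a3 and Aqp4, had signal in each group, with summed means of 186799 in Control, 185843 in Aβ and 146536 in Aβ+DFMO. Calls rest on the authors' DESeq2 test, with 0.05 as the limit on the adjusted p. Calls with the GC trend removed are the exception, and their p-values were computed anew from the implied standard errors. The standard error given beside a log2 ratio is implied by the authors' p-value under a Wald test. Both comparisons use the same Aβ libraries, so their values are not independent of each other, and calls in Aβ+DFMO assume that its single library varied like the others. In bulk RNA, fewer cells of a type and less RNA per cell cannot be told apart.

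Both mitochondrial ribosomal RNAs were much lower in Aβ than in Control. mt-Rnr2, the RNA of the large ribosomal subunit (chrM:1094-2675, plus strand, GRCm38), had a normalized mean of 168517 in Control, 23348 in Aβ and 273583 in Aβ+DFMO. mt-Rnr1, the RNA of the small subunit (chrM:70-1024, plus strand), had means of 46812, 8260 and 66654 in the same order. For each of the 2 genes the Aβ mean is the low one and the Aβ+DFMO mean the high one. Among all genes of the table mt-Rnr2 ranked 5 by level in Control, 108 in Aβ and 2 in Aβ+DFMO, and mt-Rnr1 ranked 37, 563 and 19.

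In the authors' deposited table mt-Rnr2 fell by 2.85 on the log2 scale in Aβ against Control (implied standard error 0.272, adjusted p = 3.97e-22), which is 7.22-fold. There mt-Rnr1 fell by 2.50 (implied standard error 0.290, adjusted p = 1.37e-14), which is 5.67-fold. They were the 2 mitochondrial transcripts called in this comparison, against a background of 0.287% of all genes called, 0.176% lower and 0.112% higher. In Aβ+DFMO against Aβ the authors' deposited table had mt-Rnr2 higher by 3.55 (implied standard error 0.333, adjusted p = 3.12e-23), or 11.7-fold. mt-Rnr1 was higher there by 3.01 in the authors' deposited table (implied standard error 0.356, adjusted p = 2.92e-14), or 8.07-fold. Aβ+DFMO was set against Control without a test: the ratio of the means was 1.62 for mt-Rnr2 and 1.42 for mt-Rnr1.

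**Figure D1:**
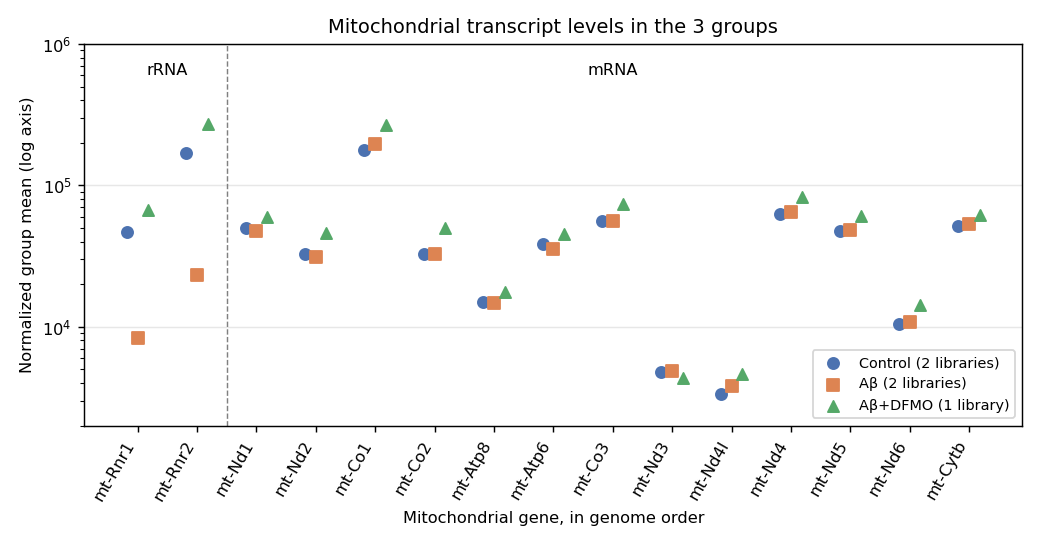
Normalized group mean (log axis) of each of the 15 mitochondrial transcripts in genome order, with 1 point for Control (circles), Aβ (squares) and Aβ+DFMO (triangles). The squares of mt-Rnr1 and mt-Rnr2 lie far below their other points, at 8260 and 23348, whereas for the 13 mRNAs the Control and Aβ points nearly coincide.

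The ribosomal RNAs kept unequal levels per kilobase, with mt-Rnr2 above mt-Rnr1 in each group. The level of mt-Rnr1 per kilobase was 0.460 times that of mt-Rnr2 in Control, 0.586 times in Aβ and 0.404 times in Aβ+DFMO. The summed ribosomal RNAs made up 0.707% of the summed signal of all genes in Control, 0.107% in Aβ and 1.12% in Aβ+DFMO. For the 13 mRNAs together these shares were 1.91%, 2.03% and 2.60%. The ratio of summed ribosomal RNA to summed mRNA, in which a common scaling of a group cancels, was 0.370 in Control, 0.0527 in Aβ and 0.431 in Aβ+DFMO.

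Some nuclear RNAs that mostly lack a poly(A) tail also moved between the groups. CT010467.1, a feature of nuclear ribosomal RNA, had a mean of 1087654 in Control, 267900 in Aβ and 322317 in Aβ+DFMO. It fell by 2.02 in Aβ against Control in the authors' deposited table (adjusted p = 0.00248) and was not called in Aβ+DFMO against Aβ (0.27, adjusted p = 0.866). Rn7sk, a small nuclear RNA that restrains transcription elongation, had means of 1032, 436 and 745; it fell by 1.24 and then rose by 0.77 in the authors' deposited table. AY036118, which overlaps CT010467.1, had means of 93495, 33490 and 176865; in the authors' deposited table its log2 ratio of −1.48 did not pass (adjusted p = 1.00), and it then rose by 2.40 (adjusted p = 0.0295). Of the same 9-member list, Gm26917 and Gm42418, also of the nuclear ribosomal RNA locus, had log2 ratios of 0.80 and 0.61 in Aβ against Control and of −1.56 and −1.48 in Aβ+DFMO against Aβ in the authors' deposited table, all 4 called. Gm42418 lies within the span of CT010467.1 and covers that of AY036118, on the opposite strand from both. Without strand, reads from the shared span cannot be assigned to a single one of these features. Rn7s1 and Rn7s2, signal recognition particle RNAs, had log2 ratios of 0.66 and 0.46 without passing and then of −1.46 and −1.18, both called, in the authors' deposited table; with the trend of the ratio on GC content removed, as described further on, they were −0.81 (adjusted p = 0.494) and −0.52 (adjusted p = 0.781). Scarna10 was called in neither comparison. Lars2, a nuclear mRNA for the mitochondrial leucyl-tRNA synthetase, was called lower in both (−0.81 and −0.31 in the authors' deposited table). Its second call was lost with the GC trend removed (adjusted p = 0.557). Lars2 was listed only as a control for overlap, and where in the gene its reads lie was not examined. The part of these nuclear RNAs in the mt-Rnr1 and mt-Rnr2 results was not tested.

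The signal of a library's highest feature is the one value per library that bears on CT010467.1. It was not used for the Aβ libraries. It was 1042210 and 1133110 in the Control libraries and 322317 in the Aβ+DFMO library. The Control values average 1087660, against a CT010467.1 mean of 1087654, and the Aβ+DFMO value equals its CT010467.1 value to the nearest unit. Markers of microglia and macrophages were counted as well. All 10 had signal in each group, and their summed means were 21211 in Control, 16044 in Aβ and 14221 in Aβ+DFMO. In Aβ against Control 3 of the 10 were called lower, against 0.176% of all genes. In Aβ+DFMO against Aβ 1 of the 10 was called lower, against 5.18% of all genes. The part of these markers in the ribosomal RNA result was not tested.

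None of the 13 mitochondrial mRNAs was called in Aβ against Control by the authors' DESeq2 test, where 0.287% of all genes were. At an unadjusted p under 0.05, 0 of the 13 passed. Their median log2 ratio was 0.02, against 0.00 over all genes, and single values in the authors' deposited table ran from −0.11 (mt-Atp6) to 0.19 (mt-Nd4l, unadjusted p = 0.0690). By sign, 8 lay above 0 and 5 below. Implied standard errors ran from 0.070 (mt-Co3) to 0.178 (mt-Nd5). The 1.14-fold ratio of mt-Nd4l, at an implied standard error of 0.104, did not pass even unadjusted. Changes of that size could thus be missed, and the limit on the adjusted p is stricter still. mt-Nd5, a core subunit of complex I, had means of 47782 and 48479 and the widest error of the 13.

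In Aβ+DFMO against Aβ, 8 of the 13 mitochondrial mRNAs were called higher and 0 lower, and the ribosomal RNAs bring this to 10 of 15, against a background of 9.18% of all genes called, 4.0% higher and 5.18% lower. The median log2 ratio of the 13 was 0.35, against 0.01 over all genes, and 12 of the 13 lay above 0. The ratios of this comparison followed GC content across nuclear genes, and with that trend removed, as described further on, 0 of the 13 mRNAs were called higher, 1 was called lower and the median was −0.06. Of the 1129 nuclear genes with a GC content no higher than that of mt-Nd4l, 27.5% were called higher without that step. mt-Nd4l had the highest GC content of the 13, and these nuclear genes were not matched to the mRNAs in level. Markers of other cells moved in the same comparison: all 10 oligodendrocyte lineage markers had signal in each group, with summed means of 47032 in Control, 46413 in Aβ and 25458 in Aβ+DFMO. Of these, 8 were called lower, or 4 with the GC trend removed, and of the 10 astrocyte markers 4 were called lower, or 5 with the trend removed, against 5.18% and 0.737% of all genes. Their part in the mRNA result was not tested.

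Complex IV, cytochrome c oxidase, which passes electrons to oxygen, had all 3 of its mitochondrial subunits called higher, against 4.0% of all genes. All 3 calls were lost with the GC trend removed, where 0.926% of all genes were called higher. mt-Co2 (chrM:7013-7696) had means of 32796 in Control, 32619 in Aβ and 50020 in Aβ+DFMO, and its log2 ratio in Aβ+DFMO against Aβ was 0.62 in the authors' deposited table (implied standard error 0.095, adjusted p = 3.43e-08). mt-Co1, the catalytic subunit (chrM:5328-6872), had means of 177546, 194634 and 268002, with a log2 ratio of 0.46 in the authors' deposited table (implied standard error 0.112, adjusted p = 0.00147). mt-Co3 (chrM:8607-9390) had means of 55552, 56230 and 74339, with a log2 ratio of 0.40 in the authors' deposited table (implied standard error 0.087, adjusted p = 0.000281). For all 3 subunits the Aβ+DFMO mean was the high one.

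Complex I, NADH dehydrogenase, takes electrons from NADH into the chain. Of its 7 mitochondrial subunits 4 were called higher, and 0 with the GC trend removed, against 4.0% and 0.926% of all genes. mt-Nd2 had means of 32567, 31380 and 46009 (log2 ratio 0.55 in Aβ+DFMO against Aβ, adjusted p = 2.43e-06, in the authors' deposited table). mt-Nd4 (0.36, adjusted p = 0.0319), mt-Nd1 (0.33, adjusted p = 0.0219) and mt-Nd6 (0.39, adjusted p = 0.0224) passed closer to the threshold in the authors' deposited table. mt-Nd6 is the one mRNA here that lies on the minus strand. Its last 14 bases overlap the end of mt-Nd5, and without strand its reads cannot be told apart from antisense RNA across the gene. mt-Nd5 had about the same log2 ratio as mt-Nd1 (0.33) at an implied standard error of 0.219 and missed the limit in the authors' deposited table (adjusted p = 0.426).

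mt-Nd3, another complex I subunit (chrM:9459-9806), was the one mRNA below 0. Its means were 4764, 4874 and 4315, and its log2 ratio in the authors' deposited table was −0.18 (implied standard error 0.123, adjusted p = 0.458). mt-Nd4l, of similar length, had means of 3345, 3815 and 4607 and was not called (0.27, adjusted p = 0.238, in the authors' deposited table). Counted without their nuclear copies, these 2 genes had the lowest levels per kilobase of the 13 mRNAs in each group.

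Of complex V, ATP synthase, mt-Atp6 had means of 38415, 35587 and 45438 and passed (0.35, adjusted p = 0.0220, in the authors' deposited table), but not with the GC trend removed (adjusted p = 0.972). mt-Atp8 had means of 14983, 14650 and 17640 and did not pass (0.27, adjusted p = 0.0807, in the authors' deposited table). The 2 genes overlap by 43 bases and are carried on a shared mRNA. Of complex I, mt-Nd4l and mt-Nd4 also overlap, by 7 bases on the same strand. Counts of mRNAs here are by gene. mt-Cytb, the mitochondrial subunit of complex III, had means of 51325, 53649 and 61735 and did not pass (0.20, adjusted p = 0.305, in the authors' deposited table). Whether complex IV differed from the others was not tested.

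**Figure D2:**
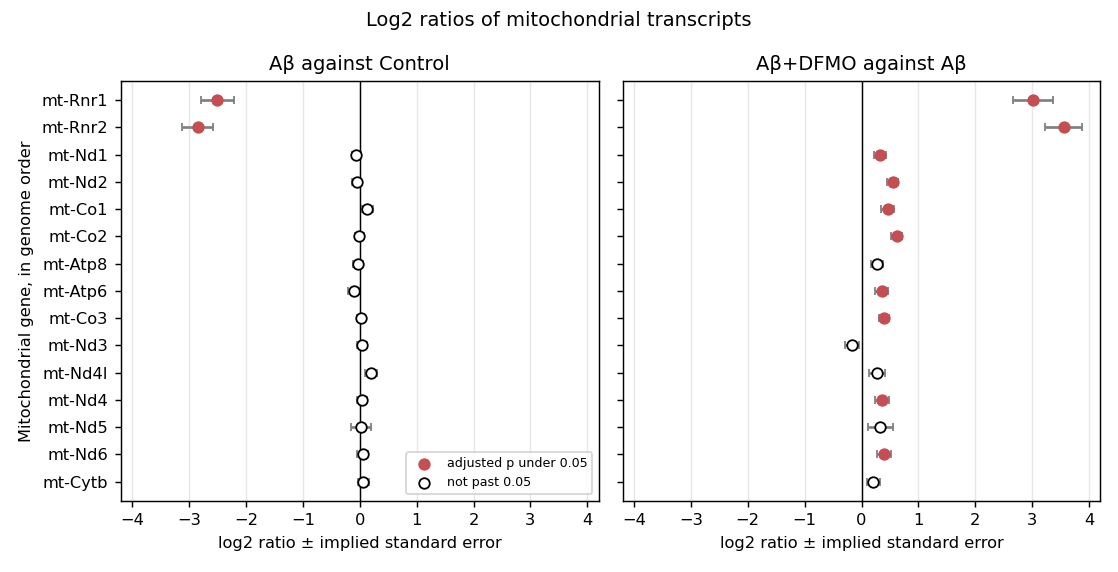
Log2 ratios of the 15 mitochondrial transcripts in genome order with their implied standard errors (bars), for Aβ against Control (left) and Aβ+DFMO against Aβ (right); filled points passed an adjusted p under 0.05. On the left 2 filled points, mt-Rnr1 and mt-Rnr2, lie at −2.50 and −2.85, and on the right 10 filled points lie above 0, with mt-Nd3 at −0.18.

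The order of the mRNAs by level per kilobase was described both as listed and with the signal of near-identical nuclear copies, treated further on, added to each gene. As listed, mt-Co1 was first in each group and 4 of the 13 held the same place in all of them. The span from the highest to the lowest was 10.2-fold in Control, 9.81-fold in Aβ and 14.0-fold in Aβ+DFMO. In Control the order was mt-Co1, mt-Atp8, mt-Co3, mt-Atp6, mt-Nd1, mt-Co2, mt-Nd4, mt-Cytb, mt-Nd2, mt-Nd5, mt-Nd6, mt-Nd3 and mt-Nd4l, from 114917 to 11263 normalized units per kilobase. mt-Co2 stood at place 6 in Control and Aβ and at place 4 in Aβ+DFMO, at 47947, 47688 and 73129 units per kilobase. With the copies added, mt-Co3 was first in each group, at 141571 units per kilobase in Control, 143245 in Aβ and 176747 in Aβ+DFMO, and mt-Co1 followed at 115332, 126486 and 175261. mt-Nd3 then stood at place 10 in Control and Aβ, at 28085 and 28604, and at place 12 in Aβ+DFMO, at 26961. The order between genes thus depends on how reads were split between gene and copy. Since the means have no error, neighbours such as mt-Nd4 (45654) and mt-Cytb (44865) in Control cannot be separated.

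Aβ+DFMO against Control was described by ratios of means only. The median log2 ratio of the 13 mRNAs was 0.39, against 0.02 over all genes, and 12 lay above 0. Values ran from −0.14 for mt-Nd3 to 0.61 for mt-Co2.

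Mitochondrial transcripts are poor in G and C, and in the Aβ+DFMO library low GC content went with higher ratios. Across the 11645 nuclear genes whose Aβ mean reached 200, Spearman's rho between the GC content of the longest transcript and the log2 ratio of Aβ+DFMO against Aβ was −0.70 (Pearson's r −0.67). The points are genes of the same libraries and no independent replicates. GC content of the 13 mRNAs ran from 31.9% (mt-Atp8) to 41.1% (mt-Nd4l), and was 35.8% for mt-Rnr1 and 35.4% for mt-Rnr2. The 1129 nuclear genes with a GC content no higher than that of mt-Nd4l had a median log2 ratio of 0.33, with quartiles of 0.20 and 0.46, and 27.5% of them were called higher. The mitochondrial mRNA median of 0.35 thus lay within the quartiles of these nuclear genes, which were not matched to the mRNAs in level.

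When the trend over nuclear genes was taken out, none of the 13 mRNAs was called higher and their median was −0.06, with 4 above 0 and 9 below. mt-Co2 was then 0.27 (adjusted p = 0.169), mt-Co1 0.15 (adjusted p = 0.821) and mt-Nd2 0.13 (adjusted p = 0.828). mt-Nd3 was then called lower, at −0.67 (adjusted p = 1.72e-05), where the trend at its GC content of 33.0% predicted 0.49. mt-Rnr2 remained higher at 3.12 (adjusted p = 2.66e-17) and mt-Rnr1 at 2.59 (adjusted p = 3.89e-10). Over all genes with a GC value, 0.926% were then called higher and 0.737% lower. Among the 13 mRNAs themselves rho between GC content and this ratio was 0.19 (Pearson's r 0.37), so the trend across nuclear genes was not seen among them.

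**Figure D3:**
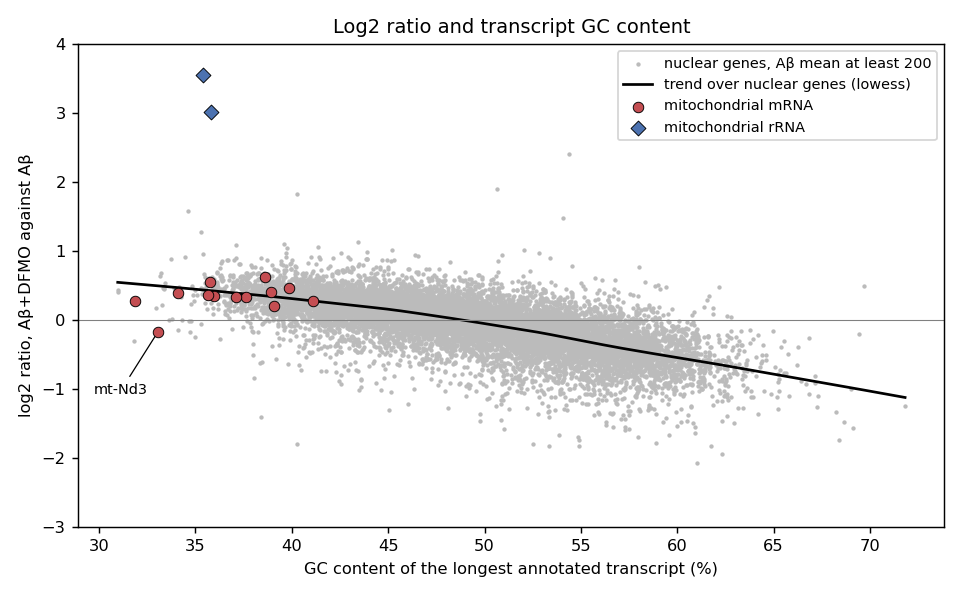
Log2 ratio of Aβ+DFMO against Aβ against the GC content (%) of the longest transcript for nuclear genes (grey points, 2 outside the drawn range), the trend over them (line), 13 mitochondrial mRNAs (circles) and 2 ribosomal RNAs (diamonds). The mRNAs lie around the line at low GC content, mt-Nd3 lies below it at −0.18, and the ribosomal RNAs lie far above it at 3.01 and 3.55.

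Several mRNAs share their sequence with nuclear copies of mitochondrial DNA that the table lists as genes of their own, so their values are uncertain. A run of 7 such pseudogenes lies on chromosome 1 between 24611535 and 24616197 (minus strand, GRCm38). Of these, 5 were 100% identical over their whole length to mitochondrial genes: Gm28437 to mt-Co3, Gm10925 to mt-Atp6, Gm28661 to mt-Co2, Gm10222 to mt-Nd4l and Gm28439 to mt-Nd4. The other two differed from their source by 1 aligned base each, shown in capitals in the first aligned bases, with positions counted from the 5′ end of the mitochondrial transcript (T3C in mt-Nd3, A1066T in mt-Co1).
mt-Nd3: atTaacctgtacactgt
Gm28438: atCaacctgtacactgt
mt-Co1: ggaAttgttttatccaac
Gm29216: ggaTttgttttatccaac
Reads that lie away from these bases fit both places equally well. The sources used here do not state how such reads were counted.

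The split between gene and copy was close to even for some pairs and not for others. Gm10925 had 99.8% of the level of mt-Atp6 in Control (38351 against 38415) and Gm28437 had 99.8% of that of mt-Co3 (55439 against 55552). Gm28438 was higher than mt-Nd3, at 5010 against 4764. Gm28439, although identical over 876 bases, had 2.45% of the level of mt-Nd4, whose transcript extends beyond the copy. Gm29216 had 0.361% of mt-Co1. In Aβ these percentages were similar, at 99.8% for Gm10925, 99.7% for Gm28437 and 104% for Gm28438.

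In the single Aβ+DFMO library the split shifted in different directions. Gm10925 stood at 111% of mt-Atp6, Gm28437 at 86.4% of mt-Co3 and Gm28661 at 72.5% of mt-Co2, where it had been 94.0% in Aβ. Gm10222 had 63.6% of mt-Nd4l in Aβ and 31.7% in Aβ+DFMO. It fell by 0.73 in the authors' deposited table (adjusted p = 0.000319), whereas Gm10925 rose by 0.50 (adjusted p = 0.000350). With the GC trend removed Gm10222 was still called lower (−0.996, adjusted p = 3.24e-07) and Gm10925 was not called (0.09, adjusted p = 0.961). Gm28438, the copy of mt-Nd3, was then called lower too (−0.48, adjusted p = 0.0025). With gene and copy added, the log2 ratio of Aβ+DFMO against Aβ was 0.45 for mt-Co2 in place of 0.62, 0.30 for mt-Co3 in place of 0.40, 0.43 for mt-Atp6 in place of 0.35, −0.04 for mt-Nd4l in place of 0.27 and −0.09 for mt-Nd3 in place of −0.18. The sums carry no test. In Aβ against Control the same sums ran from −0.11 for mt-Atp6 to 0.13 for mt-Co1.

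**Figure D4:**
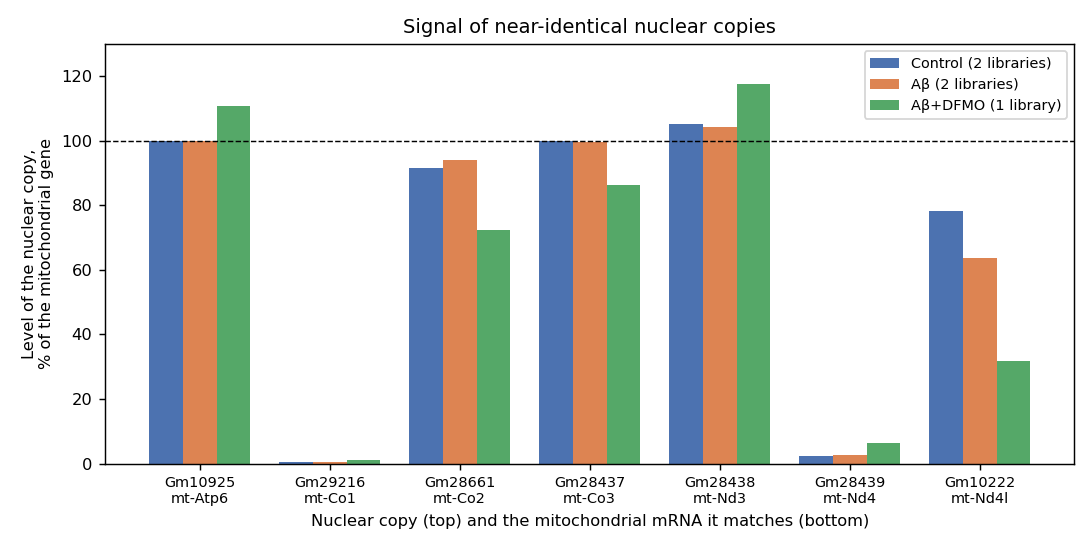
Level of each of 7 near-identical nuclear copies as a percentage of the mitochondrial mRNA it matches, in Control, Aβ and Aβ+DFMO (bars of group means, with no error available); the dashed line marks 100%. Gm10925, Gm28437 and Gm28438 lie near 100% in Control and Aβ, and Gm10222 falls to 31.7% in Aβ+DFMO.

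Across 14 nuclear copies, 90.7% to 100% identical to their source, the summed signal was 134325 in Control, 133100 in Aβ and 166501 in Aβ+DFMO, or 23.1%, 22.2% and 21.1% of that of the 13 mRNAs. No copy of mt-Rnr1 or mt-Rnr2 was found among the genes of the table, so the ribosomal RNA values have no such partner there.

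The nuclear genes that transcribe, cut, modify and degrade mitochondrial RNA were measured for 49 of 51 listed symbols. By the authors' DESeq2 test 0 of them were called in either comparison. Over all genes 0.287% were called in Aβ against Control and 9.18% in Aβ+DFMO against Aβ. The median log2 ratio of the 49 was 0.01 in Aβ against Control and 0.18 in Aβ+DFMO against Aβ, the latter against 0.01 over all genes. With the GC trend removed the latter median was 0.14, against 0.02 over all genes. The 4 with the smallest p-values, all in Aβ+DFMO against Aβ, were Rexo2, an oligoribonuclease (0.35, unadjusted p = 0.00533), the RNA-binding proteins Ptcd2 (0.61, unadjusted p = 0.00564) and Ptcd3 (0.38, unadjusted p = 0.0129), and Mterf4, which acts in ribosome assembly (0.63, unadjusted p = 0.0142), in the authors' deposited table.

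Nuclear partners of the same respiratory complexes were counted beside the mitochondrial mRNAs, without a test of the difference. The nuclear genes matched by symbol to complexes I, III, IV and V numbered 96, assembly factors and a few pseudogenes included. By the authors' DESeq2 test 0 of them were called in Aβ against Control (median 0.05), where 0.287% of all genes were. In Aβ+DFMO against Aβ, 2 were called higher and 8 lower (4.0% and 5.18% over all genes), with a median of −0.06 against 0.35 for the mitochondrial mRNAs; once the GC trend was removed, 0 of those with a GC value, which Atp5md lacks, were called either way, and the medians were 0.03 and −0.06. Examples in the authors' deposited table are Atp5md (0.86) and Uqcrb (0.57), which rose, and Cox6a1 (−0.84) and Atp5d (−0.59), which fell. Of 26 genes of mitochondrial mass and turnover, 0 were called in Aβ against Control, where 0.287% of all genes were. In Aβ+DFMO against Aβ 2 of the 26 rose and 2 fell, where 4.0% and 5.18% of all genes did. The mitophagy kinase Pink1 (−0.55) and the import pore subunit Tomm40 (−0.72) fell, while the fission enzyme Dnm1l (0.35) and the transcription factor subunit Gabpa (0.37) rose in the authors' deposited table. None of these 4 passed once the GC trend was removed.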

How the data were processed

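RNA was measured in 5 libraries (2 Control, 2 Aβ, 1 Aβ+DFMO). The submitters' processing notes name STAR 2.7.3a, Partek, DESeq2 and FastQC and the builds mm10 (GRCm38) and GRCm39, without saying what each was used for; the sources used here state no counting program, annotation or filter. Per the file headers, the deposited signal is a normalized least-squares mean per group, and the deposited ratio, log2 ratio and p-value come from 2 comparisons. Another file gives, per the file headers, reads per library and the percent of them in exons (84.4% to 84.9% in the Control and Aβ+DFMO libraries; its lines for the Aβ libraries name no single sample and were not used here). Checked on all 18783 genes, the deposited log2 ratios are those of the means and the adjusted p-values are Benjamini-Hochberg values.

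Counts per library had been planned for edgeR but were not used here, so no counts were re-tested. The authors' p-values stand, except where the GC trend was removed. There the remaining log2 ratio was divided by the implied standard error and read as a normal deviate. Those p-values are not from DESeq2, were adjusted by Benjamini-Hochberg over the 18459 genes with a GC value, and leave out the error of the trend. The implied standard error is the log2 ratio divided by the normal deviate of its two-sided p. In the Aβ+DFMO column 80.2% of the 7239 values under 200 units were whole multiples of 7.45 within 0.05 of a read, too few to recover counts. GC content came from the longest GENCODE M21 transcript (18459 genes, all 15 members); the trend was a lowess curve (fraction 0.3, statsmodels 0.14.6) over nuclear genes whose Aβ mean reached 200. Nuclear copies were found with blastn 2.17.0 (e-value at most 1e-10). All members may be named; of each other list at most 4 genes with the smallest p, or all nuclear copies and nuclear ribosomal RNA features. Rn7sk, Rn7s1, Rn7s2, Scarna10 and Lars2 were named after their values were seen. The members, lists and alternatives were chosen with earlier results of these data known.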

Additional observations from a re-analysis of the deposited data

How the results depend on the processing

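Readjusting p-values over genes with a mean of at least 10 left all counts of called transcripts as they were. Scaling to the median of all genes, scaling to the summed signal of nuclear genes and a pseudocount of 10 signal units kept the direction of each of the 15 log2 ratios, except that mt-Atp8 (0.0029) and mt-Co2 (0.028), not called in Aβ against Control, came to lie above 0 with the summed signal. Taking out the GC trend changed Aβ+DFMO against Aβ: 2 transcripts were called higher in place of 10, both among the 10, and 1 lower in place of 0, and the median of the mRNAs turned from 0.35 to −0.060. Under it mt-Atp6 (−0.066), mt-Nd1 (−0.048), mt-Nd6 (−0.080) and mt-Nd4 (−0.071) changed sign among the called mRNAs. For Aβ+DFMO against Control it moved the mRNA median from 0.39 to 0.0053, mt-Rnr2 from 0.70 to 0.30 and mt-Rnr1 from 0.51 to 0.12. The cause was not tested. Adding nuclear copies to the mRNA sum gave ribosomal RNA to mRNA ratios of 0.30 in Control and 0.0432 in Aβ in place of 0.370 and 0.0527. Adding near-identical copies to each mRNA, an alternative chosen after seeing the data, moved the Aβ+DFMO against Aβ median to 0.33. With it mt-Co3 in place of mt-Co1 was first per kilobase, the span from highest to lowest mRNA was 7.06-fold in Control, 6.83-fold in Aβ and 8.65-fold in Aβ+DFMO in place of 10.2, 9.81 and 14.0, and 7 in place of 4 mRNAs held the same place. Leaving out a library and a fit to counts with other size factors were not run. No paired analysis was possible because the table gives group means, which carry no replicate numbers. The depth of the Aβ+DFMO library limits mt-Nd3 and mt-Nd4l, at an estimated 579 and 618 reads.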
